A study of Mus musculus with 6 samples.

Results

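The voltage-gated potassium channels of the Kv1 family were examined as 9 genes: the pore-forming subunit genes Kcna1 to Kcna6 and the genes of the cytoplasmic beta subunits, Kcnab1, Kcnab2 and Kcnab3. They were taken by symbol, and all 9 were found among the 23306 rows of the deposited count table. Ribosome-bound RNA had been sequenced from the frontal cortex of male C57BL6 mice. All mice carried a Cre recombinase transgene driven by the parvalbumin promoter and a haemagglutinin-tagged allele of the ribosomal protein gene Rpl22 over a normal one (Tg(Palvalbumin-cre)::RPL22HA/WT, called RiboTag). Cre switches on the tag, so that an antibody recovers ribosomes mainly from parvalbumin neurons, cortical inhibitory cells that fire fast. One group had wild type Fxr1. The other had an Fxr1 conditional knockout, made with the same Cre, so cells without Cre keep the gene. Fxr1 encodes a fragile X-related protein that binds RNA. The labels give no age, and do not tell whether libraries come from different animals. The p-values below therefore measure the spread between libraries, which may be partly technical. Of 6 samples, 3 per genotype, 4 could be matched to a column of the table, namely replicates 2 and 3 of wild type and replicates 1 and 3 of knockout.

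Kv1 channels open at voltages just above the resting potential and carry a low-threshold potassium current. In many neurons, parvalbumin neurons among them, they sit at the axon initial segment, along the axon and near terminals, where they set the threshold for a spike and limit repetitive firing. Each channel is a tetramer of pore subunits, which may be of different kinds, and the beta subunits attach to its cytoplasmic face, where they help the channel reach the axon and, with some partners, speed its inactivation.

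The 4 libraries held between 9696126 and 10301280 counts. Fxr1, the targeted gene, had counts-per-million levels (CPM, scaled by library totals) of 98.4 and 101 in the wild type libraries (replicates 2 and 3, in this order throughout) against 17.8 and 18.7 CPM in the knockout libraries (replicates 1 and 3), so the libraries went with their labels. The 10 markers of parvalbumin neurons summed to 11555 and 11692 CPM in the wild type libraries. Both knockout libraries lay lower, at 11215 and 11256 CPM. Of these sums, Gad1 gave 4048 to 4354 CPM and Pvalb itself 241 to 264 CPM. Gad1, Gad2, Erbb4 and Pvalb were each lower in both knockout libraries, Lhx6 was higher in both, and the other markers overlapped between genotypes. The bearing of the lower sum on the Kv1 values was not tested. Such sums depend on which markers are listed and do not measure purity. Other cells were present too: 6 markers of excitatory neurons summed to between 774 and 856 CPM, 6 of astrocytes to between 503 and 596 CPM, and 6 of oligodendrocytes to between 267 and 384 CPM. Markers of striatal projection neurons (5 of 6 in the table) summed to between 31.2 and 31.5 CPM in wild type and between 39.9 and 41.7 CPM in knockout, and whether this bears on the Kv1 values was not tested. None of these markers was at 0 in any library. Kv1 genes are expressed by many neurons, and how much of their counts came from cells other than parvalbumin neurons was not measured here. In pulled-down RNA of this kind, fewer cells of a type and less RNA per cell cannot be told apart.

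The pore genes carry near-identical protein parts on coding sequences that differ, though less so between some pairs, such as Kcna5 and Kcna6. This bears on the counts, because a read that fits 2 genes can be lost or given to the wrong one. The clearest case is the selectivity filter, the loop that lets potassium through. Below are 78 bases of each coding strand around it, from GENCODE M21 transcripts (mm10), with the filter codons in capitals.
Kcna1: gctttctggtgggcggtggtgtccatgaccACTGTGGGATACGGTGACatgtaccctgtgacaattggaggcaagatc
Kcna2: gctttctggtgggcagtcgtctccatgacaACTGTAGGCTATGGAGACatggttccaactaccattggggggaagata
Kcna3: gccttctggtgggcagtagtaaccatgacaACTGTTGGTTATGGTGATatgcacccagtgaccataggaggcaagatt
Kcna4: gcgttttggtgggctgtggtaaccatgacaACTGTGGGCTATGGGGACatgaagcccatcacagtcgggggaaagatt
Kcna5: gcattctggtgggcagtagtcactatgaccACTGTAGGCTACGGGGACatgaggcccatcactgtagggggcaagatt
Kcna6: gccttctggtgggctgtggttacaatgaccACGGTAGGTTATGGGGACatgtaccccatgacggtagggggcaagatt
Against Kcna1, the other 5 genes differed at 15 (Kcna3) to 20 (Kcna5) of these 78 bases, and at 3 to 5 bases within the capitals. The closest pairs, Kcna4 with Kcna5 and Kcna5 with Kcna6, differed at 13 bases.

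Over all annotated transcripts, the longest exact run shared by a pair of pore genes was 91 bases, between Kcna5 and Kcna6. These genes share a second run of 86 bases a little downstream (bases 1225 to 1310 of the Kcna5 coding sequence and 1084 to 1169 of that of Kcna6) and another of 35 bases. Among the other pairs of pore genes, the longest run was 31 bases, between Kcna1 and Kcna6. The 91-base run lies in coding sequence, at bases 1124 to 1214 of Kcna5 and 983 to 1073 of Kcna6, counted from the start codon. It covers codons of the voltage-sensing segment, whose regularly spaced arginines and lysine (6 codons, in capitals) respond to the membrane potential.
Kcna5 and Kcna6: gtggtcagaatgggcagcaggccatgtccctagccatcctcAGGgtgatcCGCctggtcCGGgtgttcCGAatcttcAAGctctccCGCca
Of the distinct 50-base words in its transcripts, Kcna5 shared 2.81% with another Kv1 gene and Kcna6 1.33%, and the other 7 genes shared none. Reads confined to the runs of 91 and 86 bases cannot be told apart between Kcna5 and Kcna6, and how the authors counted such reads is not given in the sources used here. These 2 runs held all of the shared 50-base words, 42 and 37 of them.

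Kcna2 and Kcna1, the pore subunits typical of axons, had the most counts of the pore genes, before any correction for length. Kcna2 (mm10 chromosome 3, 107101146 to 107115005, plus strand, with its coding sequence in 1 exon) measured 1693 and 1743 CPM in the wild type libraries and 1751 and 1723 CPM in the knockout libraries. The 2 knockout libraries lay inside and just above the wild type range. Kcna1 (chromosome 6, 126640397 to 126646384, minus strand, 1 coding exon), whose human counterpart is mutated in episodic ataxia with myokymia, measured 1094 and 1223 CPM in the wild type libraries and 1129 and 1262 CPM in the knockout libraries. Here wild type replicate 2 and knockout replicate 1 were the low libraries, and each genotype held 1 low and 1 high value.

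Kcna6 (chromosome 6, 126708329 to 126740674, minus strand), a further neuronal pore subunit, measured 103 and 122 CPM in the wild type libraries and 108 and 142 CPM in the knockout libraries. The same 2 libraries were low as for Kcna1, and the genotypes overlapped. Kcna6 shares 2355 exonic bases with Gm26673, an annotated antisense gene on the other strand that has no row in the table. Without knowing whether the authors counted by strand, reads of both genes cannot be told apart there.

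Kcna3, a subunit best known from lymphocytes, and Kcna4, which forms fast-inactivating channels, had fewer counts. Kcna3 (chromosome 3, 107036169 to 107038070, plus strand) measured 17.2 and 18.0 CPM in the wild type libraries and 16.5 and 16.8 CPM in the knockout libraries. It was the 1 member whose genotypes did not overlap, with a gap smaller than the difference between the wild type libraries. Kcna4 (chromosome 2, 107290639 to 107298502, plus strand) measured 16.7 and 12.0 CPM in the wild type libraries and 14.9 and 14.0 CPM in the knockout libraries, so the wild type libraries enclosed both knockout libraries. Kcna5, known from heart and smooth muscle (chromosome 6, 126532551 to 126535412, minus strand), had 8 and 14 counts in the wild type libraries, and knockout libraries had 10 and 9. The exact Poisson 95% intervals of these counts, which cover counting error only, ran from 3.45 to 15.8 for the lowest and from 7.65 to 23.5 for the highest, and overlapped. Kcna6, which shares long exact runs with Kcna5, had 1002 to 1466 counts. How many of the Kcna5 counts came from Kcna6 transcripts was not measured. Of the pore genes outside the set, Kcna10 had between 1 and 3 counts per library and Kcna7 had 0. For a count of 0 the floor was set at 3 counts, or 0.309 CPM at the smallest library total.

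Among the beta subunits, Kcnab2, the form found with most axonal Kv1 channels, had the most counts. Kcnab2 (chromosome 4, 152390742 to 152477871, minus strand) measured 895 and 887 CPM in the wild type libraries and 939 and 855 CPM in the knockout libraries, with the knockout libraries on either side of both wild type libraries. Kcnab1 (chromosome 3, 65109384 to 65378223, plus strand), whose amino terminus can close the pore of Kv1 channels, measured 368 and 367 CPM in the wild type libraries and 371 and 339 CPM in the knockout libraries. Kcnab3 (chromosome 11, 69326258 to 69333042, plus strand), the third beta subunit gene, measured 320 and 314 CPM in the wild type libraries and 323 and 295 CPM in the knockout libraries. All 3 genes stood highest in knockout replicate 1 and lowest in knockout replicate 3. Kcnab1, Kcnab2 and Kcnab3 share 201, 125 and 147 exonic bases with other annotated genes (A330015K06Rik and Kcnab3os on the opposite strand and Gm16334 on the same strand as Kcnab2), none of which has a row in the table.

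**Figure D1:**
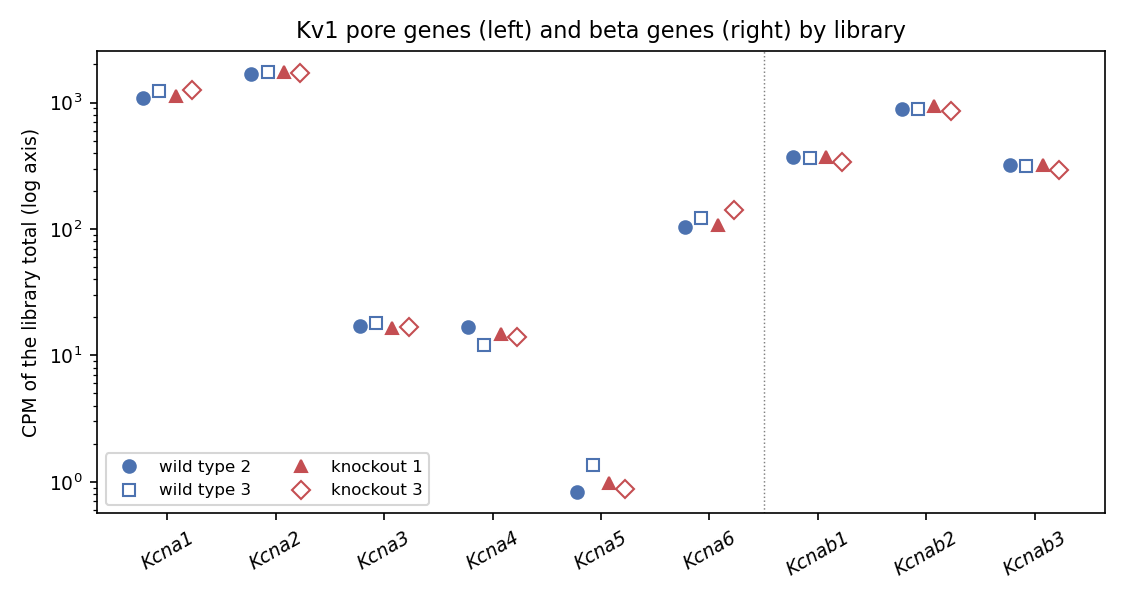
CPM of the 6 Kv1 pore genes and the 3 beta genes on a log axis, 1 point per library (blue, wild type; red, knockout). The 4 libraries of each gene lie close together next to the whole span, from 0.825 CPM for Kcna5 to 1751 CPM for Kcna2. The ranges of Kcna3 (16.5 to 18.0 CPM) and Kcna4 (12.0 to 16.7 CPM) overlap.

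The knockout effect was estimated with edgeR's quasi-likelihood test over all 12449 genes that passed a filter on low counts, which all 9 Kv1 genes did. None passed the threshold (an adjusted p of 0.05): 0 of 9 were called higher and 0 lower by edgeR, against 0.0161% of tested genes higher and 0.0161% lower, 4 genes in all. In this fit of all 4 libraries, an unadjusted p under 0.05 was reached by 0 of 9, against 3.23% of tested genes. Under each of 11 other settings the count of members called was 0 of 9 as well, or 0 of 8 where Kcna5 did not pass a stricter filter. The background under these settings was 0.0111% of genes with DESeq2's Wald test, 0.0241% with limma voom or without the robust fit, and 0.0321%, 0.00803%, 0.072% and 0.0297% with DESeq2's size factors, library totals, no filter and a stricter filter in edgeR. Without single libraries it was 0.0706% (wild type replicate 2), 0.196% (wild type replicate 3), 0.227% (knockout replicate 1) and 0.377% (knockout replicate 3). The adjusted p by edgeR was 0.998 for each member. The median log2 fold change of the 9 genes, knockout against wild type, was 0.010, beside −0.0015 over all tested genes, with 5 members above and 4 below 0. The genotypes did not overlap for 1 of 9 members, against 30.2% of tested genes.

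For the abundant members the intervals were narrow. For Kcna2 the log2 fold change came to 0.017 (SE 0.063), and the 95% interval of its fold ran from 0.924 to 1.11. That of Kcna1 was 0.045 (SE 0.071), with a fold between 0.933 and 1.14. For Kcnab2 the log2 fold change was 0.011 (SE 0.068) and the fold lay between 0.915 and 1.11. The corresponding intervals of the fold were 0.873 to 1.07 for Kcnab1 and 0.881 to 1.08 for Kcnab3. With 2 libraries per genotype and under this model, the intervals of these 5 genes together ran from 0.873 to 1.14. Fxr1 in the same fit fell by 2.45 on the log2 scale (SE 0.10; adjusted p = 1.77e-15 by edgeR). The 4 less abundant genes left more room. The interval of the fold was 0.902 to 1.37 for Kcna6 and 0.774 to 1.16 for Kcna3. It was 0.796 to 1.27 for Kcna4 and 0.396 to 1.82 for Kcna5. These intervals give the changes that the data allow under this model at this depth and number of libraries. The smallest detectable change was not computed.

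**Figure D2:**
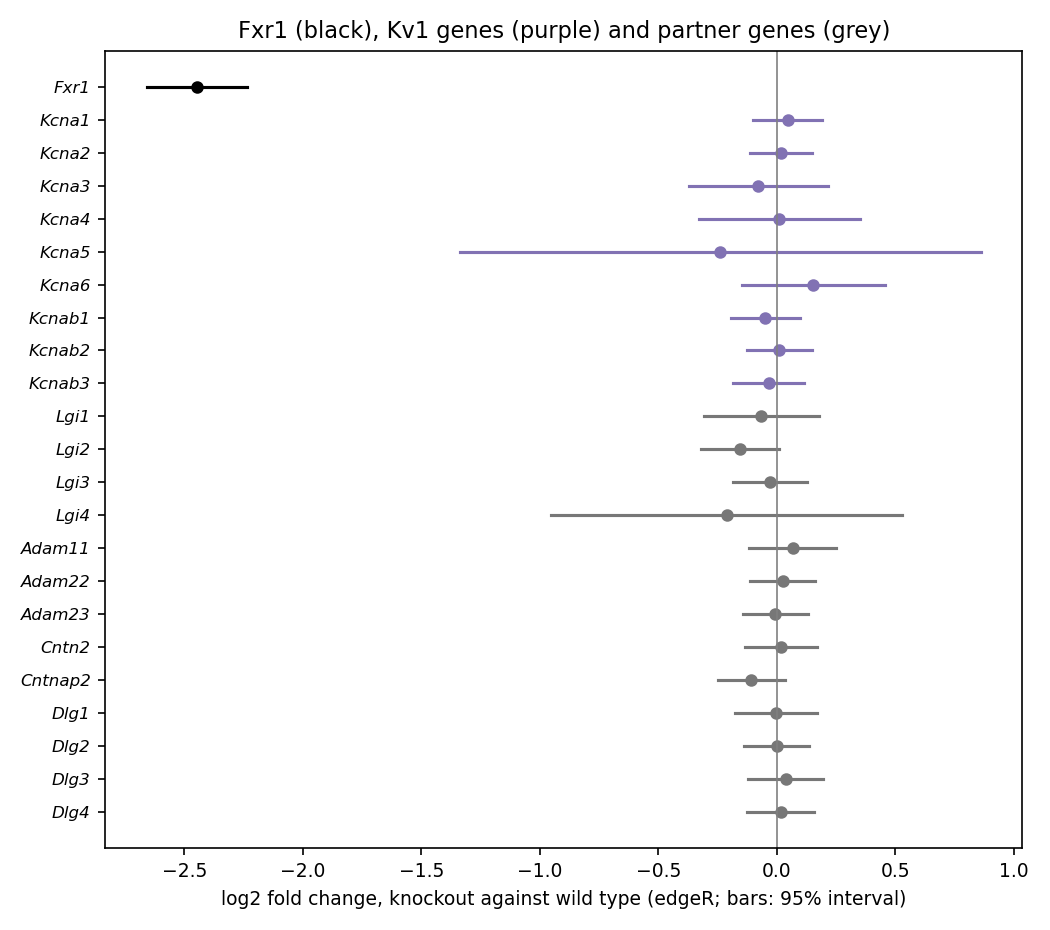
Log2 fold change of knockout against wild type by edgeR, with its 95% interval, for Fxr1 (black), the 9 Kv1 genes (purple) and the tested partner genes of the Lgi1 complex, the adhesion pair and the scaffolds (grey). Every interval except that of Fxr1 includes 0, and those of Kcna5 and Lgi4, both of few counts, are the widest.

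For every member except Kcna3, the 2 libraries of at least 1 genotype differed by more than the genotypes did. Kcna1 was higher in replicate 3 than in the other library of its genotype by 0.16 (log2 of the CPM ratio) in wild type and by 0.16 in knockout, against a difference of 0.045 between genotypes. For Kcna6 these within-genotype differences were 0.23 and 0.40, against 0.15 between genotypes. Kcnab1, Kcnab2 and Kcnab3 differed between the knockout libraries by −0.13 each and between the wild type libraries by −0.0052, −0.014 and −0.024. The estimate for Kcna6 therefore rested on which library was used. Its log2 fold change was 0.33 without knockout replicate 1 and −0.044 without knockout replicate 3. Leaving out wild type replicate 3 gave 0.29, and leaving out replicate 2 of that genotype 0.038. Knockout replicate 3, with the highest Kcna1 and Kcna6 and the lowest beta genes, also had the highest summed level of oligodendrocyte markers (384 CPM). The other 3 libraries had 267 to 296 CPM, and the lowest was wild type replicate 3, also high for Kcna1 and Kcna6. Astrocyte markers were highest in knockout replicate 3 too (596 CPM, against 503 to 540 CPM). Knockout replicate 1 had the highest share of the ribosomal RNA precursor Rn45s (0.711% of its counts, against 0.283% to 0.315%). Markers of other interneurons summed to 83.3 and 103 CPM in the wild type libraries and 73.0 and 111 CPM in the knockout libraries, low in the same 2 libraries as Kcna1 and Kcna6. Their part in these differences was not tested.

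**Figure D3:**
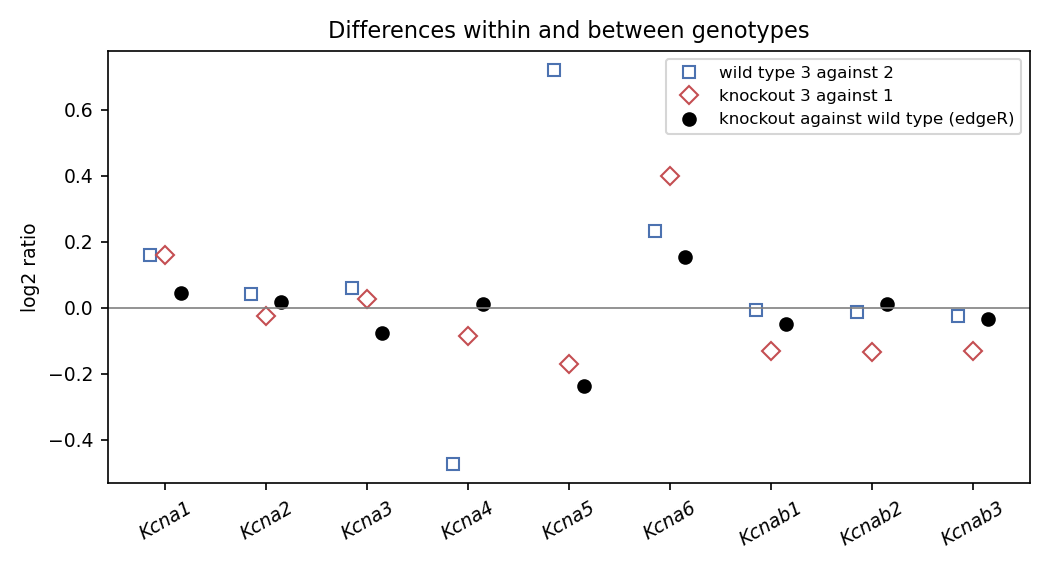
Log2 ratio of CPM between the 2 libraries of each genotype (open symbols) and the log2 fold change between genotypes by edgeR (black) for each Kv1 gene. Both open symbols lie farther from 0 than the black point for Kcna1, Kcna2, Kcna4, Kcna6 and Kcnab2. For Kcna5 only that of wild type does, for Kcnab1 and Kcnab3 only that of knockout, and for Kcna3 neither.

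To compare levels between genes, CPM was divided by the length of each gene's exons in kilobases. On this scale, over all 4 libraries, Kcna1 stood at 246 ± 16.4 CPM per kb (SD, n = 4), Kcnab2 at 160 ± 6.17, Kcna2 at 145 ± 2.18, Kcnab3 at 109 ± 4.39 and Kcnab1 at 42.0 ± 1.76. Kcna6 followed with 17.4 and 20.4 CPM per kb in wild type and 18.2 and 24.0 in knockout. Kcna3 stood at 9.01 ± 0.327, Kcna4 at 2.98 ± 0.401 and Kcna5 at 0.353 ± 0.0844 CPM per kb. The ranges of neighbours in this order did not overlap over the 4 libraries, but the order depends on the length used. In plain CPM, Kcna2 (mean 1727) stood above Kcna1 (1177) and Kcnab2 (894). Against 11684 tested genes with an annotated length, whose median was 5.21 CPM per kb, Kcna1 stood above 99.4% and Kcnab2 above 99.0%. Kcna2 and Kcnab3 stood above 98.8% and 98.1%, while Kcna4 was above 36.2% of them.

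Within the pore genes, Kcna1 made up 57.0% and 58.8% of the summed level per kb in wild type and 57.1% and 59.4% in knockout. Kcna2 made up 35.4% and 33.7% in wild type and 35.6% and 32.5% in knockout. Kcna6 took 4.33% and 4.70% in wild type and 4.40% and 5.39% in knockout. Kcna3 accounted for 1.99% to 2.26% of a library's sum, Kcna4 for 0.573% to 0.861% and Kcna5 for 0.0687% to 0.109%. Thus the composition was mainly Kcna1 and Kcna2 in all 4 libraries, and only the Kcna3 share, 2.21 ± 0.0609% in wild type and 2.04 ± 0.0798% in knockout (SD, n = 2 each), did not overlap between genotypes. An exact two-sided permutation test of 2 libraries against 2 cannot go below p = 0.333, so no share could pass a threshold of 0.05.

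**Figure D4:**
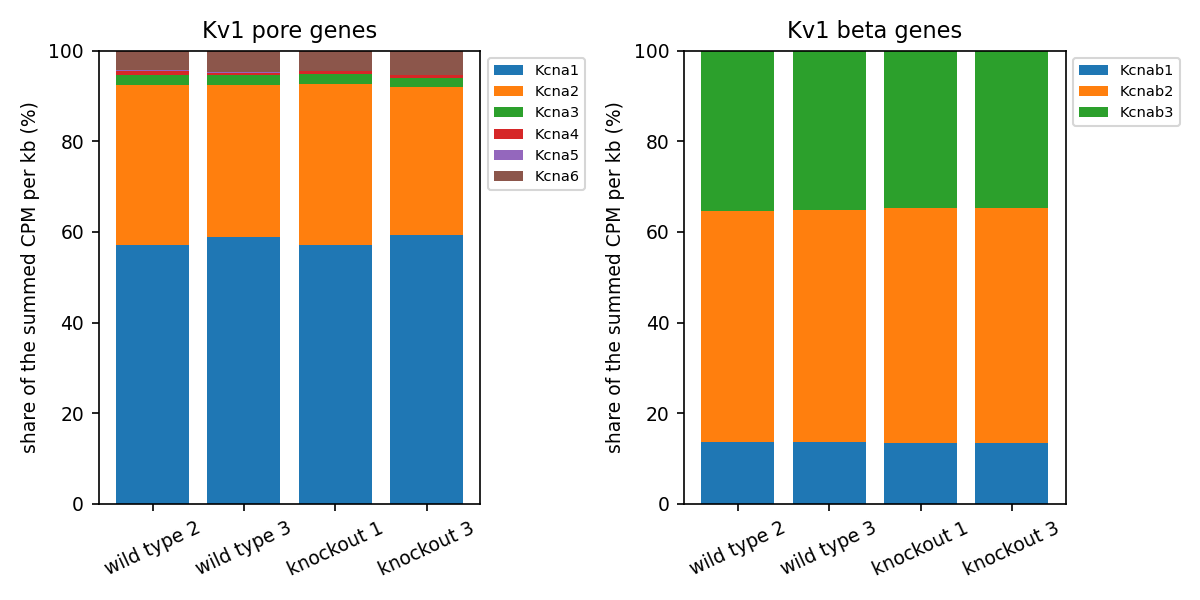
Share of each gene in the summed CPM per kb of the Kv1 pore genes (left) and beta genes (right), 1 bar per library. Kcna1 and Kcna2 fill most of each left bar, and the right bars are nearly alike, with Kcnab2 between 51.0% and 51.9%.

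The beta genes varied little in their shares over the 4 libraries, and whether this is unusual was not tested. Kcnab2 made up 51.0% and 51.1% of their summed level per kb in wild type and 51.9% in both knockout libraries. Kcnab3 took 35.4% and 35.2% in wild type and 34.8% in both knockout libraries, and Kcnab1 13.6% and 13.7% in wild type and 13.3% in both knockout libraries. None of these 3 shares overlapped between genotypes, but they sum to 100% and so are not separate observations. Each had p = 0.333 by the exact permutation test, the smallest possible here (adjusted p = 0.833). In CPM, the genotypes did not overlap for 30.2% of tested genes. The difference in the Kcnab2 share was 0.860 percentage points. In raw counts, Kcnab2 was 56.6% of all beta counts in each wild type library, and 57.5% and 57.4% in the knockout libraries. The Wilson 95% intervals (counting error only) were 55.8% to 57.3% in each wild type library and 56.7% to 58.2% in each knockout library. They overlapped, but overlap of single-library intervals does not test the difference between genotypes. The summed beta level was 0.785 and 0.716 of the summed pore level in wild type and 0.784 and 0.665 in knockout, so that the genotypes overlapped.

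The order of Kcna1 and Kcna2 depends on the length used. The exons of Kcna2 cover 11.906 kb, of which 1.497 kb are coding, and those of Kcna1 cover 4.780 kb, with 1.485 kb coding. With exon length, Kcna1 was 1.70 ± 0.107 times as high as Kcna2 (SD, n = 4), and with the longest transcript 1.96 ± 0.124 times. With coding length it was 0.687 ± 0.0435 times as high, and in plain counts 0.681 ± 0.0432 times, so Kcna2 then led. Kcnab2 led the beta genes with each length, at 51.4 ± 0.498% with exon length, 52.6 ± 0.514% with the longest transcript and 58.3 ± 0.519% with coding length. Kcnab3 was above Kcnab1 with exon or transcript length (35.1% against 13.5% with exon length) and below it with coding length (19.3% against 22.4%). Which parts of each transcript the reads covered cannot be read from counts per gene.

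**Figure D5:**
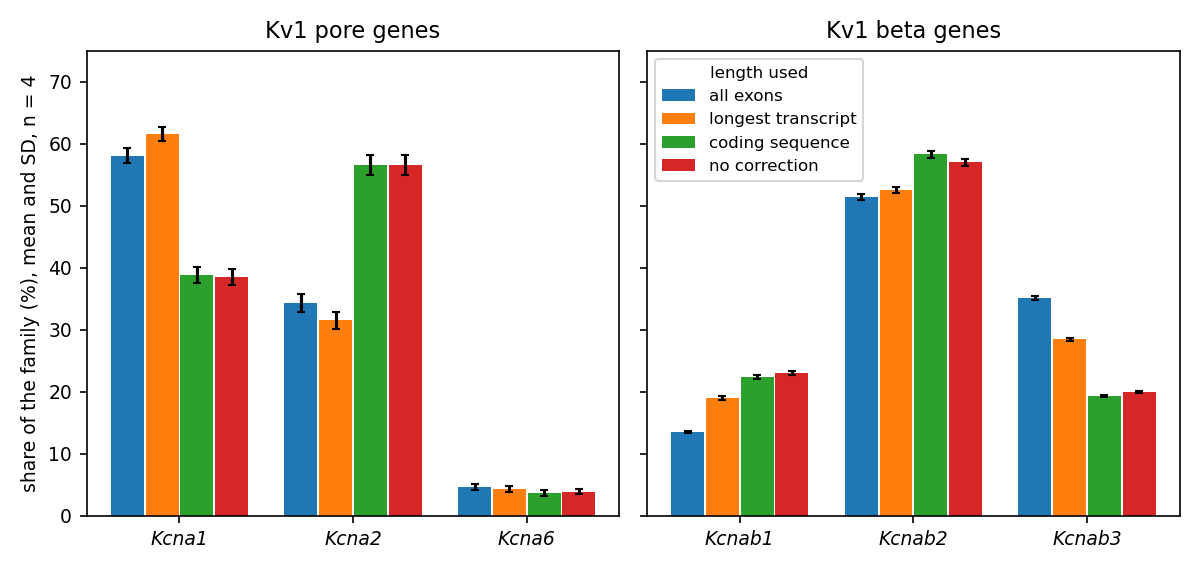
Share of the main pore genes (left) and the beta genes (right) in their family with 4 choices of gene length; bars are means and error bars SD over 4 libraries. Kcna1 and Kcna2 change places between exon or transcript length and coding length or no correction, while Kcnab2 leads the beta genes with each.

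Kv1 channels in axons are held by a set of partner proteins, and 18 genes were listed for them: secreted and membrane proteins of the Lgi1 complex, the cell adhesion pair Cntn2 and Cntnap2, scaffolds, an RNA-editing enzyme and the remaining pore genes. Of the 17 found in the table, 15 were tested, and 0 passed in either direction by edgeR, against 0.0321% of tested genes in either direction. In the same edgeR fit of all 4 libraries, an unadjusted p under 0.05 was reached by 0 of 15. The count of partners called was 0 with DESeq2 and with limma voom. The partners had a median log2 fold change of −0.0021, with 6 above and 9 below 0. Their genotypes did not overlap for 1 of 15, Cntnap2, against 30.2% of tested genes.

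Cntnap2, which encodes Caspr2, the adhesion protein that clusters Kv1 channels beside the node of Ranvier, measured 624 and 669 CPM in the wild type libraries and 579 and 622 CPM in the knockout libraries. Its log2 fold change was −0.11 (SE 0.068; adjusted p = 0.998 by edgeR), and ranged from −0.16 without wild type replicate 2 to −0.046 without wild type replicate 3. Its partner Cntn2 measured 228 and 214 CPM in the wild type libraries and 214 and 233 CPM in the knockout libraries. The 2 genotypes overlapped for Cntn2, and the gap for Cntnap2 was smaller than the difference between libraries of 1 genotype.

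Lgi2, a relative of the secreted epilepsy protein Lgi1, had the smallest unadjusted p of the partners (0.0664 by edgeR; adjusted p = 0.998). Its log2 fold change of −0.16 (SE 0.080) also moved with the libraries used. It was −0.25 without wild type replicate 2, −0.26 without knockout replicate 3, −0.061 without knockout replicate 1 and −0.054 without wild type replicate 3. Among the settings that kept all 4 libraries, its unadjusted p was under 0.05 only with no filter on low counts (0.0343 by edgeR, adjusted p = 0.990). It measured 275 and 310 CPM in the wild type libraries and 243 and 283 CPM in the knockout libraries. Per length, Lgi1 itself stood at 2.66 CPM per kb against 42.5 CPM per kb for Lgi2, and it measured 33.4 and 28.4 CPM in the wild type libraries and 28.8 and 30.2 CPM in the knockout libraries. Adam22, the membrane receptor of Lgi1, measured 491 and 473 CPM in the wild type libraries and 487 and 493 CPM in the knockout libraries. Dlg4, which encodes the scaffold PSD-95 that binds the tail of Kv1 pore subunits, measured 338 and 342 CPM in the wild type libraries and 337 and 350 CPM in the knockout libraries. Adam11, which encodes a protein that places Kv1 channels at inhibitory terminals in the cerebellum, had an estimated log2 fold change of 0.067 (SE 0.089). The genotypes overlapped for each of these 5 genes.

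Kcnab1, Kcna3 and Kcna2 lie on the chromosome of the deleted gene, 31.0 Mb, 73.0 Mb and 73.0 Mb from Fxr1. Their log2 fold changes were −0.049 (SE 0.071), −0.077 (SE 0.14) and 0.017 (SE 0.063), and none passed by edgeR (adjusted p = 0.998 each).

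Genes whose CPM followed that of Kcna1 most closely over the 4 libraries were Lap3, Fbxo10 and Faf2. The root mean square difference of log2 CPM, each gene centred on its own mean, was 0.0047, 0.0062 and 0.0068. Such closeness is common over 4 libraries: of 8423 genes of at least 10 CPM, 588 lay within 0.05 of Kcna1.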

How the data were processed

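Ribosome-bound RNA was recovered by pull-down of tagged Rpl22 and made into libraries with a SMARTer stranded total RNA kit, per the labels' protocols. STAR and mm10 are named in the submitters' processing notes. Not given in the sources used here: tool versions, the counter, its annotation and whether it used strand. The values the authors deposited are unnormalized whole-number read counts, 1 row per gene symbol. The table has 6 columns, and 2 of them, titled alike as wild type replicate 1, were left out. Replicate numbers follow accession order.

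CPM was computed from column totals. Genes were tested with edgeR 4.0.16 in R 4.3.3 (TMM, filterByExpr, robust quasi-likelihood fit, Benjamini-Hochberg adjustment), after the procedure was tested on simulated data. Alternatives used DESeq2 1.42.0 and limma 3.58.1, other scalings and filters, and each library left out. Exon, transcript and coding lengths, coordinates and transcript sequences came from GENCODE M21 (mm10), matched by symbol. The exact permutation test was that of scipy 1.17.1.

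The members and lists were chosen with earlier results of these data known. The rule for names took all 9 members, Fxr1, the 4 partners of smallest p, 5 partners by role and the 3 genes closest to Kcna1. Epb41l3, a listed partner, was not analysed here, and 1 of the 4 partners of smallest p is not reported here.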

Additional observations from a re-analysis of the deposited data

How the results depend on the processing

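Across the alternatives run, 0 Kv1 genes and 0 partner genes passed in either direction. The fall of Fxr1 passed in each of the 11, with log2 fold changes from −2.47 to −2.42. Over all genes, 4 passed. This count became 1 with library totals, 13 with no filter on low counts and 2 by the DESeq2 Wald test, and ranged from 9 to 48 without single libraries, where the spread of a lone library is borrowed from the other genotype. Other scalings, filters and tests kept the direction of every Kv1 gene, and turned among partners only Dlg2 (0.00045 by DESeq2).

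Leaving out single libraries turned the direction of most small log2 fold changes. Their ranges were −0.038 to 0.14 for Kcna1, −0.010 to 0.048 for Kcna2, −0.20 to 0.26 for Kcna4, −0.55 to 0.18 for Kcna5 and −0.044 to 0.33 for Kcna6. For the beta genes they were −0.13 to 0.029 (Kcnab1), −0.071 to 0.089 (Kcnab2) and −0.12 to 0.043 (Kcnab3). Kcna3, whose genotypes did not overlap in CPM, kept its direction (−0.11 without wild type replicate 2 to −0.037 without wild type replicate 3). Partners that turned were Lgi1 (−0.17 to 0.049), Lgi3 (−0.062 to 0.010), Lgi4 (−0.51 to 0.030), Adam11 (−0.051 to 0.20), Adam23 (−0.043 to 0.028), Cntn2 (−0.032 to 0.067), Dlg1 (−0.083 to 0.074), Dlg2 (−0.042 to 0.039), Dlg3 (−0.047 to 0.13) and Adarb1 (−0.044 to 0.049).

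Differences in pore shares between genotypes, in percentage points, ranged likewise from −0.802 to 1.45 for Kcna1, −2.01 to 1.02 for Kcna2, −0.164 to 0.125 for Kcna4, −0.0332 to 0.0041 for Kcna5 and −0.119 to 0.874 for Kcna6. The difference in the ratio of beta to pore level ranged from −0.0855 to 0.0339. The cause was not tested. The Kcna3 share and the 3 beta shares kept their direction without each library. This had to follow, because their genotypes did not overlap, and it adds no support.

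With the longest transcript, the coding sequence and no length, the Kcna1 share was 61.6%, 38.8% and 38.5%, the Kcnab2 share 52.6%, 58.3% and 57.0%, and the beta to pore ratio 0.918, 0.657 and 0.514. No paired analysis was possible because numbers given in accession order pair no libraries. Depth limits Kcna5 most, at 8 to 14 counts a library, and the sequence it shares with Kcna6 limits it further.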
